A study of Mus musculus with 16 samples.

Results

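The Platr and Snhg families of mouse long noncoding RNA genes were followed across the series. The members were every gene whose symbol was Platr or Snhg followed by a number, and the deposited gene table held 43 of them among 56941 genes: 29 Platr and 14 Snhg genes. All 29 Platr genes and 13 of the 14 Snhg genes passed the filter on low counts and were tested. Snhg3 was left out of the tests with 3 reads in all 16 libraries. Other genes, Rcc1 among them, share 86.31% of its exon bases, and reads that matched several genes were not counted. Its count is therefore no measure of its level. A further gene, 1810032O08Rik, is called Snhg16 in RefSeq but not in the name table used here, and lay outside the rule.

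The series sequenced chromatin-associated RNA of E14TG2a, an established line of mouse embryonic stem cells, here made to express a histone demethylase from a construct. KDM4A and KDM4B remove methyl groups from H3K9 and H3K36, and KDM6A (UTX) and KDM6B remove them from H3K27. Each was expressed either full-length (FL) or without an intrinsically disordered region (IDR-deleted). The 8 groups, of 2 libraries each, were thus KDM4A, KDM4B, KDM6A and KDM6B, each as FL and as IDR-deleted protein. All groups shared the line and the medium, which held LIF (1000 U per ml) and inhibitors of MEK (PD0325901, 1 µM) and GSK3 (CHIR99021, 3 µM). No group lacked a construct, so every contrast below is IDR-deleted against FL of the same demethylase. The deletion is named del-cIDR in titles and del-IDR in genotype labels, and neither gives the residues removed, the promoter of the construct, or whether cells were a pool or a clone. Whether both libraries of a group stem from separate cultures is not in the labels, so p-values measure only the spread between these libraries, which may be technical.

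Platr genes take their name, pluripotency associated transcript, from their expression in embryonic stem cells, and most are spliced noncoding RNAs whose level falls on differentiation. Platr10 is known as a chromatin-bound RNA with a role in pluripotency, Platr4 as a regulator of mesendoderm differentiation, and Platr11 and Platr14 were knocked down in early studies of the family. Snhg genes are small nucleolar RNA host genes. Their introns release snoRNAs, short RNAs that guide 2′-O-methylation (box C/D) or pseudouridylation (box H/ACA) of ribosomal RNA, and the spliced exons are often degraded by nonsense-mediated decay. Many host genes start with a run of pyrimidines, the terminal oligopyrimidine (TOP) tract known from ribosomal protein genes.

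A TOP tract lies at the start of the transcript, so start windows of some expressed members are shown, with the 5 bases from the annotated start in capitals. These are examples and not a ranking by level. Snhg15 (first bases AACTT), Snhg5 (GGGCT) and Snhg14 (AGTCA) were more abundant than Snhg8 and are not printed. RefSeq promoter windows of 300 bases around a start, on GRCm38.p6, were found for 13 Platr genes (15 windows) and 13 Snhg genes (14 windows). Each line gives 10 bases before and 30 bases from the start.

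Snhg12 (chr4:132308668-132308707, plus strand): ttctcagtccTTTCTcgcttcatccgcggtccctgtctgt
Snhg8 (chr3:123508307-123508346, minus strand): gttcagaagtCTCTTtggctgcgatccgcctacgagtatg
Snhg17 (chr2:158361480-158361519, minus strand): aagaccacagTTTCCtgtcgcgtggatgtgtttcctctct
Snhg1 (chr19:8723477-8723516, plus strand): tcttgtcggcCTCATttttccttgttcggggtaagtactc
Snhg11 (chr2:158375703-158375742, plus strand): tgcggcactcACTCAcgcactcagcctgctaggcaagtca
Platr3 (chr2:135646513-135646552, plus strand): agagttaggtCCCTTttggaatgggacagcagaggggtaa
Platr14 (chr2:104559449-104559488, plus strand): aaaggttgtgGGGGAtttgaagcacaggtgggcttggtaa
Platr10 (chr3:75655702-75655741, minus strand): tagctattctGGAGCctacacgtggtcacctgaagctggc

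The first 5 bases were all C or T in 4 of 14 Snhg windows (Snhg8, Snhg12, Snhg18 and 1 of 2 starts of Snhg17) and in 2 of 15 Platr windows (Platr3 and 1 of 2 starts of Platr6), against 4.44% of all 32851 promoters. The Platr6 start counted here lay within a run of T. Of the windows counted, only those of Snhg8 and Platr3 began with C. Snhg1 began with CTC but had an A within the first 5 bases. These are counts of letters, and whether any of these starts is a TOP tract was not tested. GC content of the 300-base windows ran from 45.0% to 75.3% (median 60.5%) in Snhg genes and from 39.0% to 52.0% (median 49.0%) in Platr genes, with a median of 52.7% over all promoters. The whole windows are shown for Platr14 and Platr3, the Platr members at 10 CPM (read counts scaled to a common library size) or more with a single window that rose and fell most in the KDM4A contrast, and for Snhg11, the Snhg member that rose most by the same rule. Capitals again mark the first 5 bases from the start.

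Platr14 (chr2:104559209-104559508, plus strand): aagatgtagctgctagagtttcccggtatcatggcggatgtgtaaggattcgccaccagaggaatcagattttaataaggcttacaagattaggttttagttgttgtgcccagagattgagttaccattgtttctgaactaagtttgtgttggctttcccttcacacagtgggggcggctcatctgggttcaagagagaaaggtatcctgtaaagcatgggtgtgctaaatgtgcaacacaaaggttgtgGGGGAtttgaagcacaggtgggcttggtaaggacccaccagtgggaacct
Platr3 (chr2:135646273-135646572, plus strand): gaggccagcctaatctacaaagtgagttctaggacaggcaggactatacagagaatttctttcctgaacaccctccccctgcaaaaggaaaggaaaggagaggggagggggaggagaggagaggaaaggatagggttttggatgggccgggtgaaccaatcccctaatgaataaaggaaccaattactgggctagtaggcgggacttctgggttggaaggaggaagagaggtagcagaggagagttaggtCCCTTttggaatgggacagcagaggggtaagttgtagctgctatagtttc
Snhg11 (chr2:158375463-158375762, plus strand): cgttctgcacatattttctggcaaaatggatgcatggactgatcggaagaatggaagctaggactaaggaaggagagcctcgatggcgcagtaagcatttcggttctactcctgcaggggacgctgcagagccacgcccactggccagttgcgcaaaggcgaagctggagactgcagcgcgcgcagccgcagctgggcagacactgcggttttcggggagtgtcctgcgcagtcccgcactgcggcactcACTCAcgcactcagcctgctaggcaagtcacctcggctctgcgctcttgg

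Letter patterns bound by factors of stem cells or housekeeping promoters were searched on both strands. The octamer ATTTGCAT was in 1 Platr window and no Snhg window (1.74% of all promoters), and TCAAGGTCA, a site letter run of ESRRB, was in no member window (0.423%). The ETS letters CCGGAAGT were in 1 Platr window and 2 Snhg windows (3.89% of all promoters), in Snhg20 over the start itself. The windows of Platr21, Platr20 and Snhg20 show those matches in capitals, written along the gene's strand.

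Platr21 (chrX:139357814-139357853, gene on the minus strand): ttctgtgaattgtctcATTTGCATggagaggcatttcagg
Platr20 (chr11:51220438-51220477, gene on the minus strand): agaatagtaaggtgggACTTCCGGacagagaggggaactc
Snhg20 (chr11:117076764-117076803, gene on the plus strand): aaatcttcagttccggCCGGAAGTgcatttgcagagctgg

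Libraries held 32739117 to 54890756 gene reads, of which the Platr genes took 466390 over all libraries and the Snhg genes 554105. Stem cell identity was checked with 10 marker genes, all of which were at 1 CPM or more on average, with a summed level of 1880 to 2830 CPM. Kdm6a was 3.67 times higher in its own 4 libraries (429 CPM) than in the other 12 (117 CPM), whereas Kdm4a (254 against 210 CPM), Kdm6b (88.1 against 74.1 CPM) and Kdm4b (92.2 against 89.5 CPM) differed little, and gene counts cannot show whether a library holds FL or deleted protein. Markers of other cell types differed between FL and IDR-deleted libraries to an extent and in a direction that varied by list and contrast. The summed level of 7 trophectoderm markers was 32.9 CPM with FL and 73.2 CPM with IDR-deleted KDM4A (range over all libraries 23.1 to 84.1 CPM, 6 of 7 at 1 CPM or more, Cdx2 under 0.1 CPM). The 8 fibroblast markers summed to 18.6 and 57.6 CPM (range 11.5 to 60.6 CPM, 3 of 8 at 1 CPM or more, Col3a1, Postn, Dcn and Lum under 0.1 CPM), and the 8 primitive endoderm markers to 650 and 928 CPM. With KDM4B these lists summed to 23.1 and 39 CPM, 12 and 26.2 CPM, and 596 and 679 CPM. For KDM6A they summed to 27.8 and 29.9, 20.6 and 17.8, and 601 and 702 CPM. For KDM6B they summed to 82.6 and 77.6, 36.9 and 45.6, and 1000 and 803 CPM. Neural markers (7 genes) summed to 116 and 132 CPM with KDM4A and to 118 and 94.8 CPM with KDM4B. Their sums were 84.0 and 85.4 CPM with KDM6A, and 132 and 157 CPM with KDM6B. The 6 markers of 2-cell-like cells summed to 224 and 60.7 CPM with KDM4A, and to 237 and 87.5 CPM with KDM4B. Their sums were 157 and 131 CPM with KDM6A, and 39.4 and 42.8 CPM with KDM6B. The part of these shifts in the results below was not tested, and in bulk libraries fewer cells of a type and less RNA per cell cannot be told apart.

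Levels of the members in this chromatin-associated RNA ranged widely in both families, and were not set against those of other genes. Per kilobase of exon and library size (RPKM), the median member stood at 5.83 among Platr genes (0.0814 to 109.9) and at 11.8 among Snhg genes (0.00400 to 37.6). The lowest Snhg value is that of Snhg3, whose exons are mostly shared with other genes. The highest Platr levels per length were those of Platr16 (109.9 RPKM) and Platr11 (76.7 RPKM), and the highest Snhg levels those of Snhg1 (37.6 RPKM) and Snhg15 (35.2 RPKM). In CPM, 14 Platr and 10 Snhg genes averaged at least 10, and 3 of each family averaged under 1. The 4 leading genes held 49.8% of the Platr reads and 68.4% of the Snhg reads. The annotation draws Snhg1, Snhg8, Snhg10, Snhg12 and Snhg17 as 1 merged exon block each, so their counts take in the introns too. Other genes, many of them snoRNA genes, share 20.66%, 15.12%, 16.24%, 16.6% and 4.78% of their exon bases in that order. In Snhg20 the share is 28.64%. Reads that matched both genes were not counted, so these counts are uncertain too.

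In the KDM4A contrast most Platr genes fell and most Snhg genes did not pass the test. Of 29 Platr genes, 19 fell and 2 rose, and of 13 Snhg genes 2 fell and 3 rose. With scaling to ERCC spike-in RNAs in place of the genes, 27 Platr genes fell and 0 rose and 9 Snhg genes fell and 0 rose, where 57.2% of all genes fell and 4.71% rose in that scaling. Over all 31057 genes tested 50.5% were called, 25.9% as falls and 24.6% as rises. Among 5035 long noncoding genes 37.2% were called, 29.4% as falls and 7.77% as rises. The median log2 fold change was -0.70 over Platr genes, -0.02 over Snhg genes and -0.05 over all genes. In 24 of 29 Platr genes both IDR-deleted libraries lay below both FL libraries and in 3 above them, where 38.7% and 34.5% of all genes did so. The ERCC scaling moved the median gene by -0.65, so in that scaling the Platr median was -1.36 beside -0.70 for all genes.

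**Figure D1:**
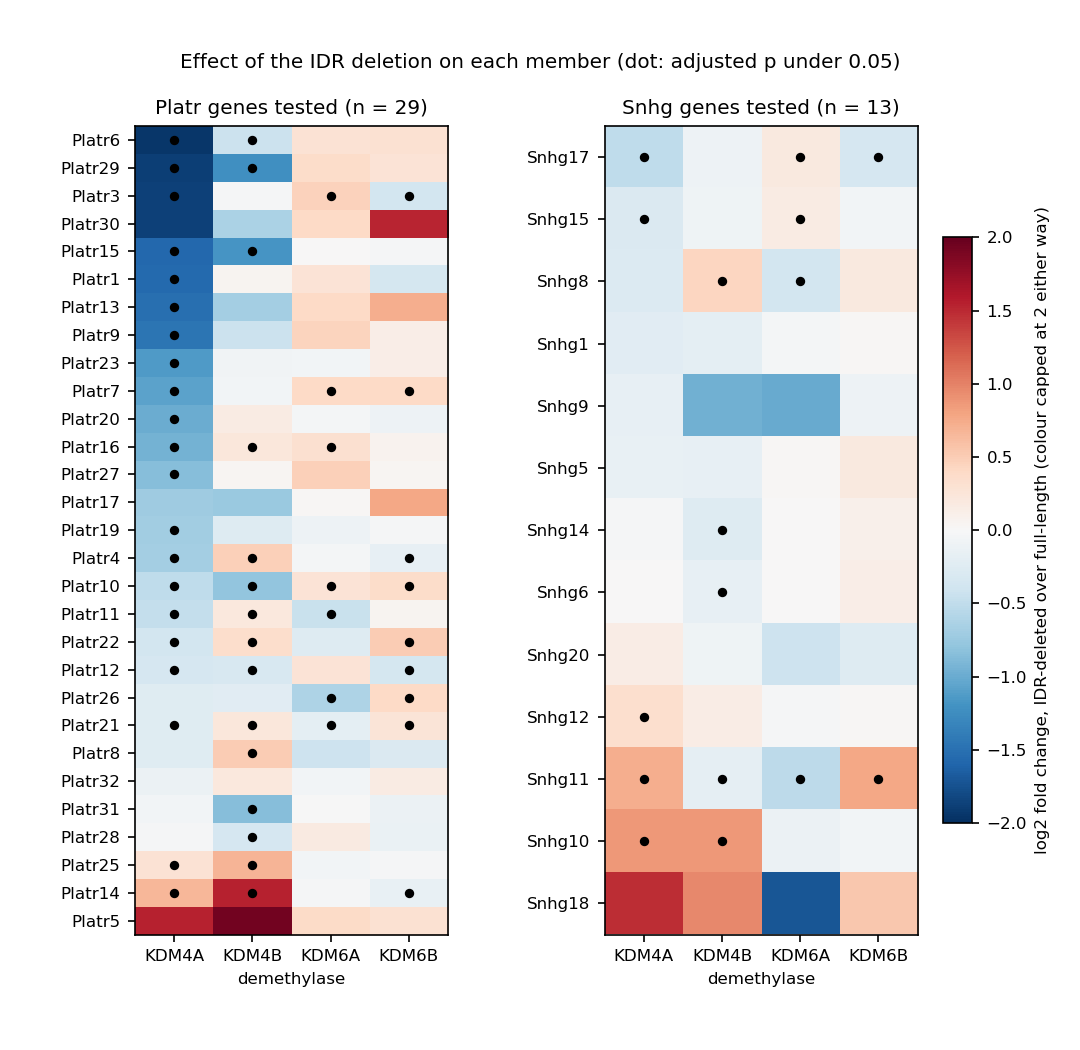
Colour shows the log2 fold change of IDR-deleted over FL libraries for the 29 Platr and 13 Snhg genes tested (rows, ordered by the KDM4A contrast) in the 4 contrasts (columns), and a dot marks an adjusted p under 0.05 (colours stop at 2). In the KDM4A column 19 Platr genes fell and 2 rose, and with ERCC scaling Platr25 and Snhg12 in that column changed sign and no Platr or Snhg rise in it was called. Platr5, Platr13, Platr30, Snhg9 and Snhg18 averaged under 1 CPM.

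Platr6, Platr29 and Platr3 had the largest called falls. Platr3 (ENSMUSG00000084762, GRCm39 chr2:135488443-135493987, plus strand, 4 exon blocks) stood at 23.3 and 25.2 CPM in the FL libraries and at 6.87 and 6.37 CPM in the IDR-deleted libraries. Its log2 fold change was -1.87 ± 0.095 (SE, 2 against 2 libraries, adjusted p = 3e-19), a level 3.66 times lower. The FL and IDR-deleted values did not overlap, and the IDR-deleted values were below those of the other 14 libraries, which began at 13.5 CPM.

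Platr6 (ENSMUSG00000097107, chr10:21706398-21720750, minus strand) went from 6.96 and 8.45 CPM to 1.66 and 2.36 CPM, a log2 fold change of -1.95 ± 0.17 (adjusted p = 1.6e-12). Platr29 (ENSMUSG00000084816, chr2:165818677-165827844, minus strand) is near the low end of the family, and went from 2.28 and 2.61 CPM to 0.67 and 0.65 CPM (log2 fold change -1.89 ± 0.30, adjusted p = 1.5e-06). Platr15 (ENSMUSG00000086563, chr2:150546456-150548796, minus strand), whose exons consist wholly of ERV1 long terminal repeat sequence, went from 26.1 and 24.0 CPM to 8.79 and 8.11 CPM (log2 fold change -1.56 ± 0.14, adjusted p = 5.6e-10). In all 3 genes both IDR-deleted libraries lay below both FL libraries.

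The most abundant Platr genes moved less but with small errors. Platr16 (ENSMUSG00000085101, chr4:145136815-145176326, plus strand), with 28.63% of its exon bases shared with Gm13230 so that its count is uncertain, went from 162 and 132 CPM to 78.9 and 73.3 CPM (log2 fold change -0.95 ± 0.067, adjusted p = 1e-10). Platr4 (ENSMUSG00000097639, chr3:41415560-41447628, minus strand) went from 57.0 and 62.4 CPM to 36.5 and 37.9 CPM (log2 fold change -0.68 ± 0.058, adjusted p = 7.5e-13). Platr20, Platr7, Platr23 and Platr1 fell by 0.99, 1.07, 1.13 and 1.56 on the log2 scale. Platr11, Platr10 and Platr21, which are among the higher members, fell by 0.47, 0.51 and 0.24.

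Both exceptions were abundant. Platr14 (ENSMUSG00000086454, chr2:104389493-104401774, plus strand) rose from 44.0 and 46.5 CPM to 72.5 and 70.7 CPM (log2 fold change 0.66 ± 0.056, adjusted p = 5.9e-13), but with ERCC scaling its change was 0.009 and not called (adjusted p = 0.93). Platr25 (ENSMUSG00000074863, chr13:62819598-62908523, minus strand), annotated as protein-coding in GENCODE M21, rose from 73.1 and 74.0 CPM to 92.7 and 87.7 CPM (log2 fold change 0.29 ± 0.054, adjusted p = 1.4e-05), but with ERCC scaling its change was -0.36. Platr5, Platr8, Platr17, Platr26, Platr28, Platr30, Platr31 and Platr32 did not pass the test. Of these, Platr28, at 33.3 and 34.1 against 33.1 and 33.6 CPM, and Platr31, at 5.91 and 6.35 against 6.67 and 5.14 CPM, had overlapping groups. Calls of 4 falls depended on single libraries. Platr12 was no longer called without FL library 2 (log2 -0.14, adjusted p = 0.45) or IDR-deleted library 1 (-0.30, 0.093), nor Platr22 without those same libraries (-0.29, 0.13, and -0.15, 0.42), nor Platr27 without IDR-deleted library 1 (-0.52, 0.19). Platr13, at most 0.629 CPM in this contrast, lost its call without any 1 of the 4 libraries (adjusted p 0.056 to 0.17).

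**Figure D2:**
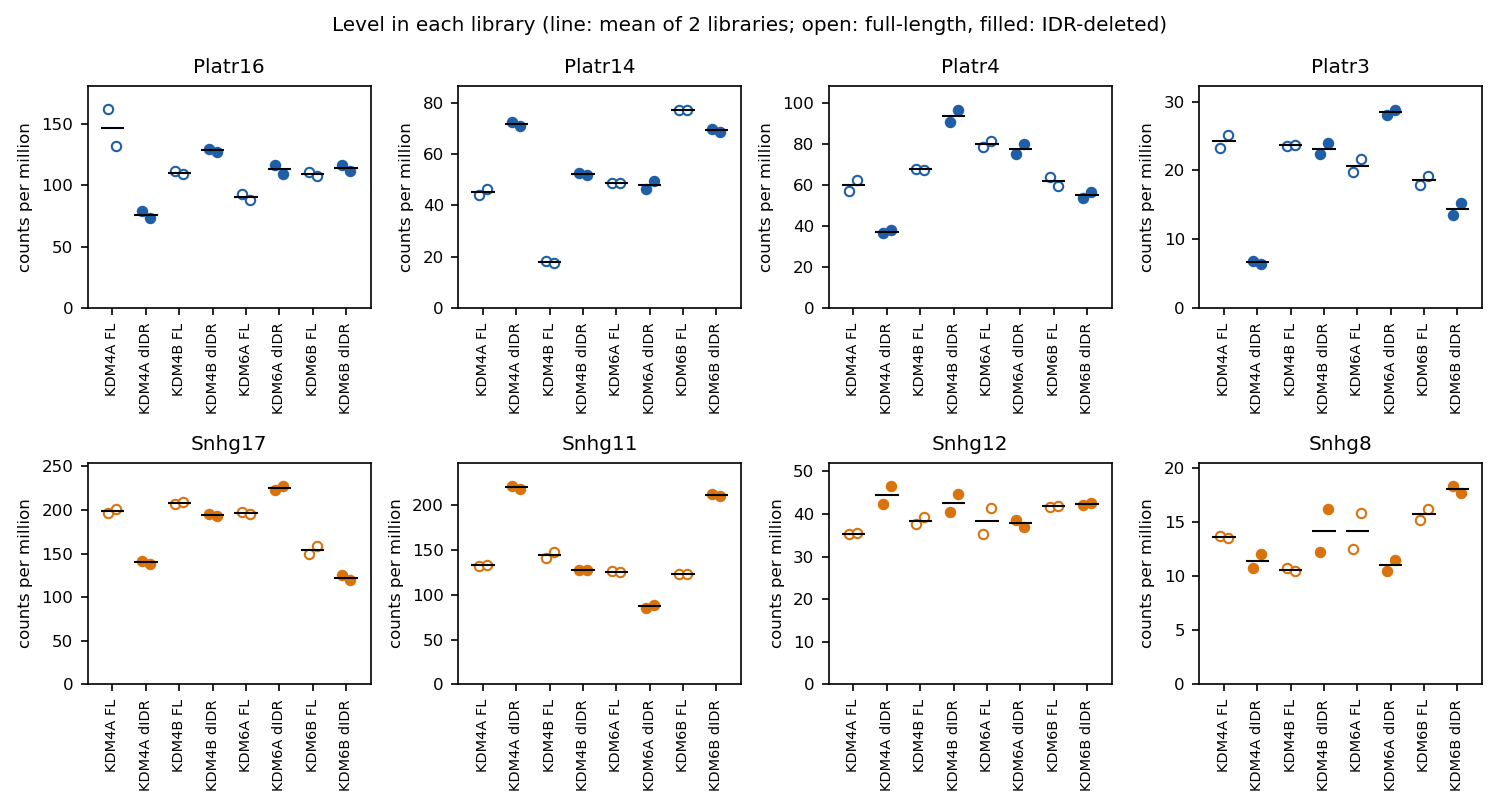
Each panel gives the level of 1 gene in CPM in all 16 libraries, by group (dIDR is IDR-deleted, open circles are FL and filled circles IDR-deleted libraries, lines are means of 2). Platr3 in the KDM4A IDR-deleted libraries lies at 6.87 and 6.37 CPM, under every other library, and Platr14 in the KDM4B FL libraries lies at 18.1 and 17.5 CPM, under every other library.

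Among the Snhg genes the KDM4A contrast gave changes in both directions. Snhg11 (ENSMUSG00000044349, chr2:158217558-158228071, plus strand), a transcript known from neurons, rose from 132 and 133 CPM to 221 and 218 CPM (log2 fold change 0.72 ± 0.041, adjusted p = 8.2e-18), but with ERCC scaling its change was 0.07 and not called (adjusted p = 0.32). Snhg17 (ENSMUSG00000085385, chr2:158195620-158203501, minus strand), its neighbour, fell from 196 and 201 CPM to 142 and 138 CPM (log2 fold change -0.50 ± 0.041, adjusted p = 2.1e-13). The groups did not overlap in either gene. On GRCm38.p6 the pair lies on opposite strands and points away from each other, with the 2 annotated starts of Snhg17 at 14191 and 14204 bases from that of Snhg11.

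Snhg10, at 2.96 and 3.76 against 7.07 and 5.20 CPM, rose by 0.87 ± 0.19 (adjusted p = 0.00015), but with ERCC scaling its change was 0.21 and not called (adjusted p = 0.33). Snhg12, host of Snord99 and 3 H/ACA snoRNA genes, went from 35.2 and 35.5 CPM to 42.4 and 46.5 CPM (log2 fold change 0.33 ± 0.070, adjusted p = 0.00013), but with ERCC scaling its change was -0.32. Snhg15 fell from 103 and 108 CPM to 86.7 and 87.1 CPM (log2 fold change -0.28 ± 0.046, adjusted p = 2e-06). Snhg1, the host of Snord22 and 7 other snoRNA genes, stood at 99.8 and 119 against 88.8 and 99.3 CPM and did not pass the test. The count of 2 Snhg falls became 5 with the replicate number as a block, 4 without the filter on low counts and 4 in a fit of the 4 KDM4A libraries alone.

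In the KDM4B contrast 8 of 29 Platr genes rose and 7 fell, and 2 of 13 Snhg genes rose and 3 fell, with 9 of the 13 Snhg estimates below 0. The Snhg falls were 5 with RLE scaling, 5 with the replicate number as a block and 6 with DESeq2. With ERCC scaling 3 Platr genes rose and 10 fell and 1 Snhg gene rose and 6 fell, where 9.26% of all genes rose and 27.6% fell in that scaling. Over all genes 36.2% were called, with 18.6% rises and 17.6% falls, and over long noncoding genes 23.9%, with 10.1% rises and 13.8% falls. The median log2 fold change was -0.05 over Platr genes, -0.10 over Snhg genes and 0.01 over all genes. Without IDR-deleted library 2 the Platr rises dropped to 5 and the Snhg rises to 1, and the Snhg falls dropped to 0 without FL library 2 and to 1 without IDR-deleted library 1.

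Platr14 had the largest called rise of the family. It went from 18.1 and 17.5 CPM in the KDM4B FL libraries to 52.5 and 51.6 CPM in the IDR-deleted libraries, a log2 fold change of 1.54 ± 0.059 (adjusted p = 2.1e-22). Its FL values were the lowest of all 16 libraries, and its IDR-deleted values lay within the range of the other groups. Platr25 rose from 56.8 and 52.8 to 86.5 and 88.3 CPM (log2 0.67 ± 0.054, adjusted p = 5.3e-13), and Platr4 from 67.5 and 67.4 to 90.5 and 96.5 CPM (0.47 ± 0.056, adjusted p = 9e-09).

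Platr8 rose by 0.50 ± 0.18 (adjusted p = 0.03), a call lost without FL library 1, FL library 2 or IDR-deleted library 2 (adjusted p 0.09, 0.11 and 0.25). The falls were led by Platr29 (2.69 and 3.18 to 1.24 and 1.26 CPM, log2 -1.22 ± 0.26, adjusted p = 0.00025) and Platr15 (30.3 and 25.7 to 12.7 and 12 CPM, log2 -1.18 ± 0.13, adjusted p = 7.5e-08). Platr31 went from 8.52 and 7.97 to 4.66 and 4.43 CPM (log2 -0.86 ± 0.15, adjusted p = 1.2e-05), and Platr10 from 38.4 and 35 to 20.3 and 22.3 CPM (log2 -0.78 ± 0.078, adjusted p = 1.3e-10). Groups did not overlap in any of these 4 falls, which were picked as called, and 33.2% of all genes were lower without overlap in this contrast.

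Of the Snhg genes in this contrast, Snhg10 rose from 1.78 and 2.37 to 3.84 and 3.69 CPM (log2 0.86 ± 0.20, adjusted p = 0.00062), close in size to its change with KDM4A. Snhg8, the host of Snora24, rose by 0.42 ± 0.12 (10.7 and 10.5 to 12.2 and 16.2 CPM, adjusted p = 0.0034), a value that rested on IDR-deleted library 2, without which it was 0.21 (adjusted p = 0.27). Snhg14, the imprinted host transcript that runs antisense to Ube3a, fell by 0.26 ± 0.065 (adjusted p = 0.0016), but not without FL library 2 (-0.17, adjusted p = 0.10) or IDR-deleted library 1 (-0.16, adjusted p = 0.12). Snhg6 fell by 0.17 (adjusted p = 0.04, lost without any 1 of the 4 libraries, 0.061 to 0.31) and Snhg11 by 0.18 (adjusted p = 0.00064, but 0.065 without FL library 2).

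The KDM4A and KDM4B deletion effects, which share no library, were set against each other in the same fit. Their difference was called for 16 of 29 Platr genes, 14 lower and 2 higher with KDM4A, and for 5 of 13 Snhg genes, where 31.1% of all genes were called (15.6% lower, 15.4% higher) and 21.1% of long noncoding genes (17.9% lower, 3.2% higher). The largest Platr differences were Platr3 (-1.84 ± 0.13, adjusted p = 2.7e-14) and Platr1 (-1.61 ± 0.21, adjusted p = 5.9e-08), which were both low in the KDM4A IDR-deleted libraries and near 0 in the KDM4B contrast (-0.03 and 0.05). Among Snhg genes Snhg11 (0.90 ± 0.058, adjusted p = 3.9e-15) and Snhg8 (-0.69 ± 0.16, adjusted p = 0.001) differed most. The Snhg count dropped to 3 without FL library 2 or IDR-deleted library 2 of KDM4A, or without IDR-deleted library 1 of KDM4B.

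Platr calls of the 2 contrasts overlapped in 12 genes, which is 57.1% of the 21 called with KDM4A and 80.0% of the 15 called with KDM4B. Of these, 7 had the same direction (Platr6, Platr10, Platr12, Platr14, Platr15, Platr25 and Platr29) and 5 the opposite (Platr4, Platr11, Platr16, Platr21 and Platr22), all 5 falling with KDM4A and rising with KDM4B. Some of these KDM4B calls were lost on leaving out a library: Platr6 without any 1 of the 4 (adjusted p 0.057 to 0.093), Platr12 without FL library 1, FL library 2 or IDR-deleted library 1 (0.15, 0.071 and 0.22), Platr22 without FL library 1 or either IDR-deleted library (0.18, 0.056 and 0.086), Platr16 without FL library 2 or IDR-deleted library 1 (0.057 and 0.085), and Platr11 without IDR-deleted library 2 (0.1). Under ERCC scaling only 3 Platr rises with KDM4B were called, so not all 5 opposite pairs held in that scaling. Platr14 rose in both contrasts and its effect was still smaller with KDM4A (difference -0.88 ± 0.080, adjusted p = 2.8e-11). Over all genes, 8249 were called in both contrasts, which is 52.6% of those called with KDM4A and 73.4% of those called with KDM4B, and 86.8% of these had the same direction. Of the Snhg genes, Snhg10 rose in both and Snhg11 went opposite ways.

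**Figure D3:**
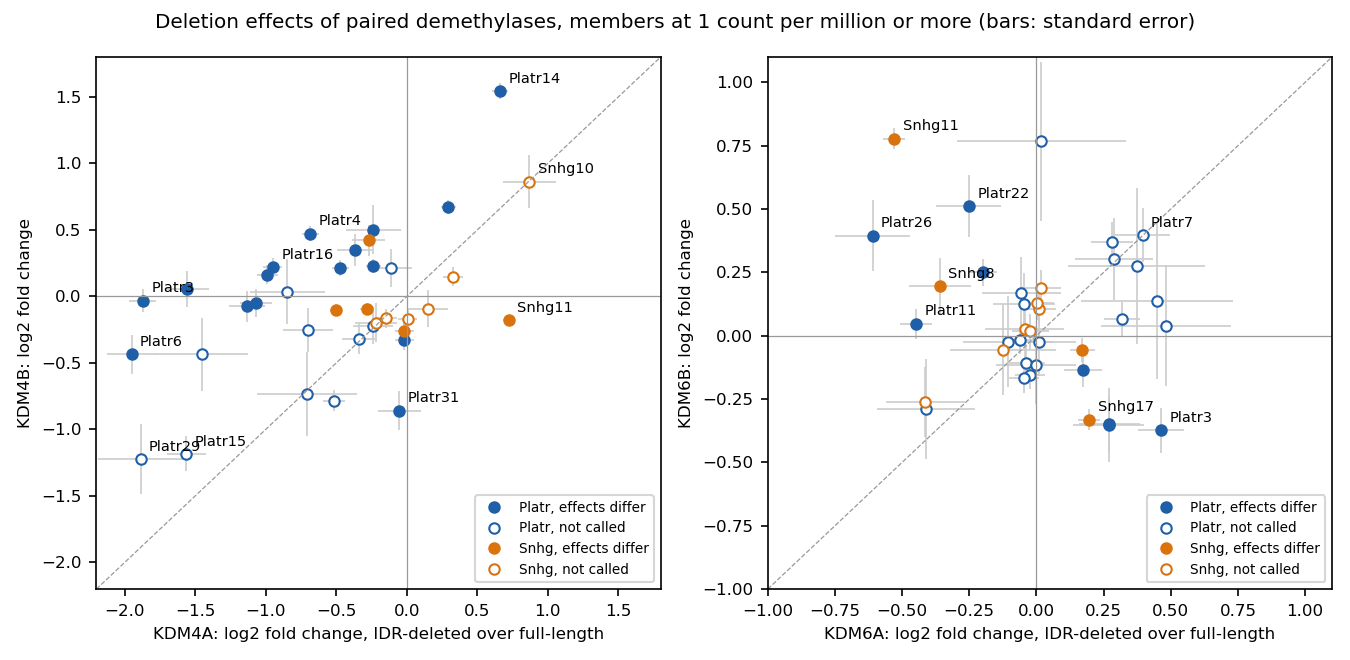
Each point is a member at 1 CPM or more, placed by its log2 fold change (IDR-deleted over FL) with KDM4A and KDM4B (left) or KDM6A and KDM6B (right), bars are standard errors, and filled points are members whose 2 effects differed at adjusted p under 0.05. Platr3 (-1.87 and -0.03) and Platr14 (0.66 and 1.54) lie above the diagonal of equal effects on the left, and Snhg11 (-0.53 and 0.78) lies farthest from it on the right. With ERCC scaling the differences of Platr28 and Snhg14 changed sign on the left.

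With KDM6A 24.1% of Platr genes and 30.8% of Snhg genes were called. Among Platr genes 4 rose and 3 fell, among Snhg genes 2 rose and 2 fell, and with ERCC scaling the counts were 1 and 9 for Platr and 0 and 7 for Snhg, where 1.43% of all genes rose and 23% fell. Over all genes 17% were called, 8.3% up and 8.65% down, and over long noncoding genes 7.96%, 4.15% up and 3.81% down. Without FL library 2 the Platr rises dropped to 2 and the Snhg falls to 1, and the Snhg rises dropped to 1 without FL library 1 or IDR-deleted library 2. Platr3 rose from 19.7 and 21.6 to 28.1 and 28.8 CPM (log2 0.46 ± 0.086, adjusted p = 9.6e-05) and Platr7 from 18.5 and 16.5 to 23.0 and 23.1 CPM (0.40 ± 0.10, adjusted p = 0.0051, but 0.12 without FL library 2). Platr16 and Platr10 rose by 0.32 and 0.28, the second not called without FL library 2 or IDR-deleted library 2 (adjusted p 0.084 and 0.083).

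Platr26 fell from 8.19 and 8.31 to 5.34 and 5.47 CPM (log2 -0.61 ± 0.14, adjusted p = 0.0013) and Platr11 from 52.8 and 56.8 to 40.2 and 40.3 CPM (-0.45 ± 0.060, adjusted p = 4.3e-07). Platr21 fell by 0.20, a call lost without FL library 2 or IDR-deleted library 1 (adjusted p 0.063 and 0.059). Snhg11 fell from 126 and 125 to 85.6 and 88.4 CPM (log2 -0.53 ± 0.041, adjusted p = 2.7e-12), while Snhg17 rose from 198 and 195 to 223 and 227 CPM (0.20 ± 0.040, adjusted p = 0.00041), a change that was -0.02 with ERCC scaling. Snhg15 rose by 0.17 ± 0.046 (adjusted p = 0.0064, but 0.12 without FL library 1 and 0.08 without IDR-deleted library 2, and -0.04 in size with ERCC scaling), and Snhg8 fell by 0.36 ± 0.11 (adjusted p = 0.025, but 0.48 without FL library 2 and 0.19 without IDR-deleted library 1).

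With KDM6B 5 Platr genes rose and 4 fell, 1 Snhg gene rose and 1 fell, and with ERCC scaling the counts were 0 and 13 for Platr and 1 and 8 for Snhg, where 2.13% of all genes rose and 42.8% fell. Over all genes 20.6% were called, 9.89% up and 10.7% down, and over long noncoding genes 14.2%, 3.14% up and 11% down. Snhg11 made the largest called change of either family, from 123 and 123 to 212 and 210 CPM (log2 0.78 ± 0.041, adjusted p = 5.1e-17), and Snhg17 fell from 150 and 159 to 125 and 120 CPM (-0.33 ± 0.041, adjusted p = 7.9e-08). Groups did not overlap in either gene, where 29.4% of all genes were higher and 28.6% lower without overlap in this contrast.

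Platr22, at 9.49 and 7.99 against 11.8 and 13.2 CPM, rose by 0.51 ± 0.12 (adjusted p = 0.002, but 0.062 without FL library 2 and 0.052 without IDR-deleted library 2). Platr10 rose by 0.37 and Platr21 by 0.25, and with ERCC scaling they stood at -0.01 and -0.13. Platr7 and Platr26 rose by 0.40 each, Platr7 with adjusted p 0.059 without FL library 2 and 0.055 without IDR-deleted library 1, and Platr26 with 0.20, 0.09 and 0.47 without FL library 1, FL library 2 and IDR-deleted library 2. Platr3 fell from 17.9 and 19.2 to 13.5 and 15.2 CPM (log2 -0.37 ± 0.087, adjusted p = 0.0016, but 0.074 without IDR-deleted library 1), and Platr12, Platr4 and Platr14 by 0.35, 0.17 and 0.15. Platr14 lost its call without any 1 of the 4 libraries (adjusted p 0.14 to 0.19). The 4 Platr falls became 0 without IDR-deleted library 1 and 2 without FL library 1 or FL library 2, and the 5 rises became 2 without FL library 2 and 3 without IDR-deleted library 2. The count of Snhg rises became 2 without IDR-deleted library 1.

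The difference of the KDM6A and KDM6B effects was called for 8 of 29 Platr and 4 of 13 Snhg genes, where 21.8% of all genes were called (10.7% lower, 11% higher) and 13.9% of long noncoding genes (3.73% lower, 10.2% higher). Snhg11 led it (-1.31 ± 0.058, adjusted p = 5.5e-19) and Snhg8 followed (-0.55 ± 0.16, adjusted p = 0.0096, but 0.13 without FL library 2 of KDM6A). Platr26 (-1.005 ± 0.20, adjusted p = 0.00017) and Platr3 (0.84 ± 0.12, adjusted p = 2e-06) were the largest Platr differences. Of 5 Platr genes called in both contrasts, Platr7 and Platr10 rose in both and Platr3, Platr21 and Platr26 went opposite ways, as did both Snhg genes called in both, Snhg11 and Snhg17. Over all genes, 1963 were called in both, of which 39.9% had the same direction. Without IDR-deleted KDM6B library 1 the Platr count dropped to 5.

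On the scale of the genes, Snhg11 and Snhg17 moved in opposite directions in the KDM4A, KDM6A and KDM6B contrasts, but with ERCC scaling Snhg11 with KDM4A (0.07) and Snhg17 with KDM6A (-0.02) were not called. With KDM4B Snhg11 fell by 0.18 and Snhg17, at 207 and 209 against 195 and 193 CPM (log2 -0.10), did not pass the test. Snhg11 was lowest in the KDM6A IDR-deleted group (mean 87.0 CPM) and highest in the KDM4A IDR-deleted group (219.5 CPM), and its values in the KDM6B IDR-deleted libraries, 212 and 210 CPM, were just under the latter. In the other 5 groups its libraries lay between 123 and 148 CPM. Snhg17 was lowest in the KDM6B IDR-deleted group (122.5 CPM) and highest in the KDM6A IDR-deleted group (225.2 CPM).

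Across the 8 groups, 26 of 29 Platr genes and 12 of 13 Snhg genes differed somewhere (adjusted p under 0.05 for any difference), where 75.8% of all genes and 61.6% of long noncoding genes did. Among members at 1 CPM or more, the highest group mean was 2.23 times the lowest in the median Platr gene (1.29 to 4.74 over 26 genes) and 1.69 times in the median Snhg gene (1.21 to 2.96 over 11 genes), beside 1.98 over 20620 genes. The KDM4A IDR-deleted group was the lowest of the 8 in 13 of those 26 Platr genes (50%), in 1 of 11 Snhg genes, and in 19.8% of all genes. Platr16, Platr3, Platr6, Platr20 and Platr23 were among the 13. Platr14 and Platr25 were instead lowest in the KDM4B FL group.

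The summed Platr level was 716.5 ± 8.88 CPM (SD, n = 2) with FL and 537.7 ± 6.17 CPM with IDR-deleted KDM4A. It was 661.5 ± 12.2 and 749.7 ± 10.0 CPM with KDM4B, 677.9 ± 0.375 and 690.5 ± 7.93 CPM with KDM6A, and 636.4 ± 14.1 and 643.8 ± 8.01 CPM with KDM6B. The summed Snhg level was 794.5 ± 22.7 and 791.3 ± 10.1 CPM with KDM4A, 861.2 ± 30.1 and 790.7 ± 25.7 CPM with KDM4B, 835.5 ± 26.3 and 829.6 ± 31.9 CPM with KDM6A, and 703.6 ± 6.47 and 773.5 ± 12.1 CPM with KDM6B. The KDM4A IDR-deleted libraries thus held the lowest Platr sums of all libraries, while their Snhg sums overlapped with those of the FL libraries. That Snhg sum joins opposite moves of abundant genes. Mean Snhg11 went from 132.8 to 219.5 CPM, while Snhg17 went from 198.2 to 139.9 CPM, Snhg15 from 105.8 to 86.91 CPM and Snhg1 from 109.5 to 94.04 CPM. Of the 13 Snhg estimates with KDM4A, 7 were below 0 and 6 above. The Snhg sums of IDR-deleted libraries lay below those of FL libraries with KDM4B and above them with KDM6B. Snhg11 alone rose from a mean of 123.0 to 211.0 CPM with KDM6B, which is more than the sum rose. The other Snhg genes together thus did not rise with KDM6B.

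**Figure D4:**
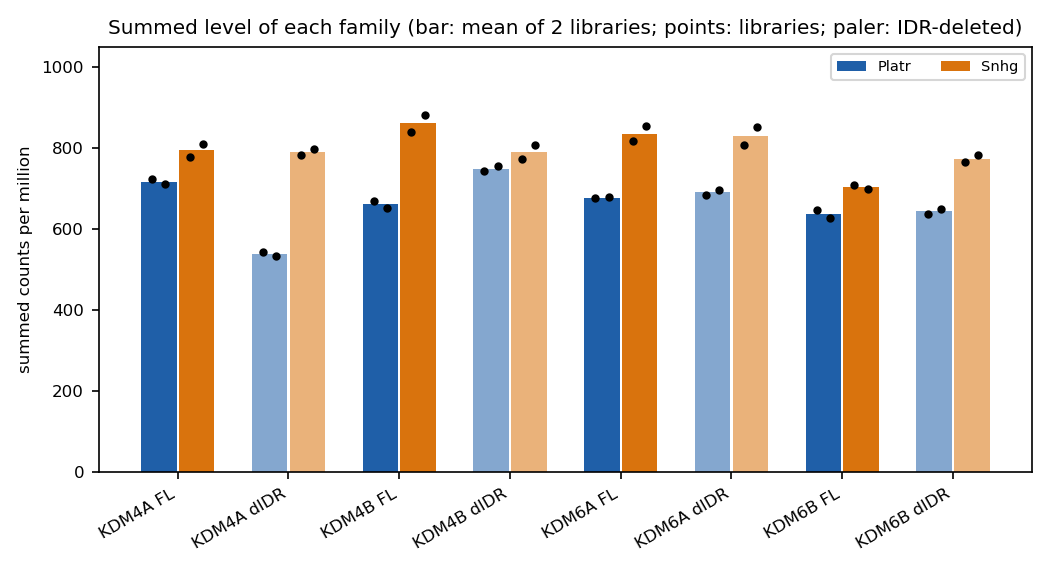
Bars give the summed CPM of the 29 Platr and 14 Snhg genes in each group (mean of 2 libraries, points are libraries, paler bars are IDR-deleted). The Platr bar of KDM4A IDR-deleted is at 537.7 CPM and the other Platr bars lie between 636.4 and 749.7 CPM.

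The families also differ in what their exons are made of, which the choice by name did not use. Repeats covered a median of 36.04% of exon bases in Platr genes and 13.63% in Snhg genes, beside 18.39% in 4996 other long noncoding genes tested. A piece of long terminal repeat lay in the exons of 20 Platr genes (68.97%), 8 Snhg genes (57.14%) and 47.9% of the other long noncoding genes. Platr13 and Platr15 were wholly ERV1 sequence, Platr14 was 57.73% ERVK, and Platr5 was 74.67% long terminal repeat. Reads of such exons that matched several places were not counted, so these genes are measured only on their unique stretches. Platr14, which rose in the KDM4A and KDM4B contrasts, and Platr15, which fell in both, are thus both rich in long terminal repeats.

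A second readout came from the repeat table of the same libraries. Reads on repeat copies that lie inside the span of 1 gene and touch no exon were summed per gene, which gives 24 Platr and 5 Snhg genes a value from their introns. These reads share libraries and scaling with the exon reads but not the exon positions, and this readout was chosen after the exon results were known. In the KDM4A contrast 16 of 24 Platr genes fell and none rose on these reads (1 rose when TMM scaling was taken over the intronic sums, and 1 without FL library 1), where 55.7% of 18200 genes were called, 37.4% as falls and 18.3% as rises (29.4% and 25.6% with that scaling). Of 14 genes called on both readouts, 13 had the same direction. Nearly all Platr calls were falls on each readout, so few could differ in direction. This agreement was not computed over all genes. The median was -0.69 over Platr genes and -0.23 over all genes.

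Intronic reads of Platr16 went from 474 and 477 CPM to 188 and 202 CPM (log2 -1.29 ± 0.039, adjusted p = 5.3e-34), and those of Platr3 from 29.9 and 33.3 to 10.2 and 11.7 CPM (-1.53 ± 0.086, adjusted p = 1.2e-21). Platr6 went from 8.92 and 9.08 to 1.92 and 1.92 CPM (-2.23 ± 0.15, adjusted p = 1.1e-18). Platr28, which did not pass the test on exons, fell on intronic reads by 0.55 ± 0.044 (221 and 224 to 148 and 157 CPM, adjusted p = 5.1e-16). Platr25 went opposite ways, up by 0.29 on exons and down by 0.34 ± 0.050 on introns (adjusted p = 3.6e-08), and Platr14 rose on exons while its intronic reads, at 42.7 and 40.1 against 44.7 and 44.7 CPM, did not pass the test.

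Snhg14 and Snhg6, with flat exon counts, changed in their introns with KDM4A. Snhg14 went from 23.6 and 22.9 to 14 and 11.4 CPM on intronic reads (log2 -0.87 ± 0.094, adjusted p = 1.6e-11), beside -0.02 on exons. Snhg6 went from 3.63 and 3.38 to 0.902 and 0.616 CPM (-2.18 ± 0.28, adjusted p = 1.5e-09), beside 0.01 on exons. The difference between the exon and intron changes was not tested.

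With KDM4B, 4 Platr genes rose and 6 fell on intronic reads (41.5% of all genes were called, 17.1% as rises and 24.4% as falls), and 9 of 10 genes called on both readouts had the same direction, Platr16 being the exception. Snhg6, the 1 Snhg gene called on both readouts with KDM4B, rose by 0.72 ± 0.23 on introns (adjusted p = 0.01) and fell by 0.17 on exons. Of 5 Platr genes called on both with KDM6B, 4 had the same direction. The exception was Platr21, up by 0.25 on exons and down by 0.20 on introns. Agreement of the readouts over all genes was not computed for KDM4B, KDM6A or KDM6B. Platr14 rose on introns from 17.7 and 16 to 45.9 and 50.5 CPM (log2 1.52 ± 0.067, adjusted p = 5.9e-26), beside 1.54 on exons. With KDM6A 8 Platr genes rose and 2 fell (11.1% and 8.27% of all genes), with 1 fall left on leaving out any 1 of the 4 libraries, and 5 of 5 genes called on both readouts had the same direction. With KDM6B 4 rose and 7 fell (5.21% and 35.5% of all genes), the rises dropping to 2 without FL library 1, FL library 2 or IDR-deleted library 2, and with TMM over the intronic sums 8 rose and 4 fell, as the split of all calls moved from 12.8% to 36.6% rises.

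**Figure D5:**
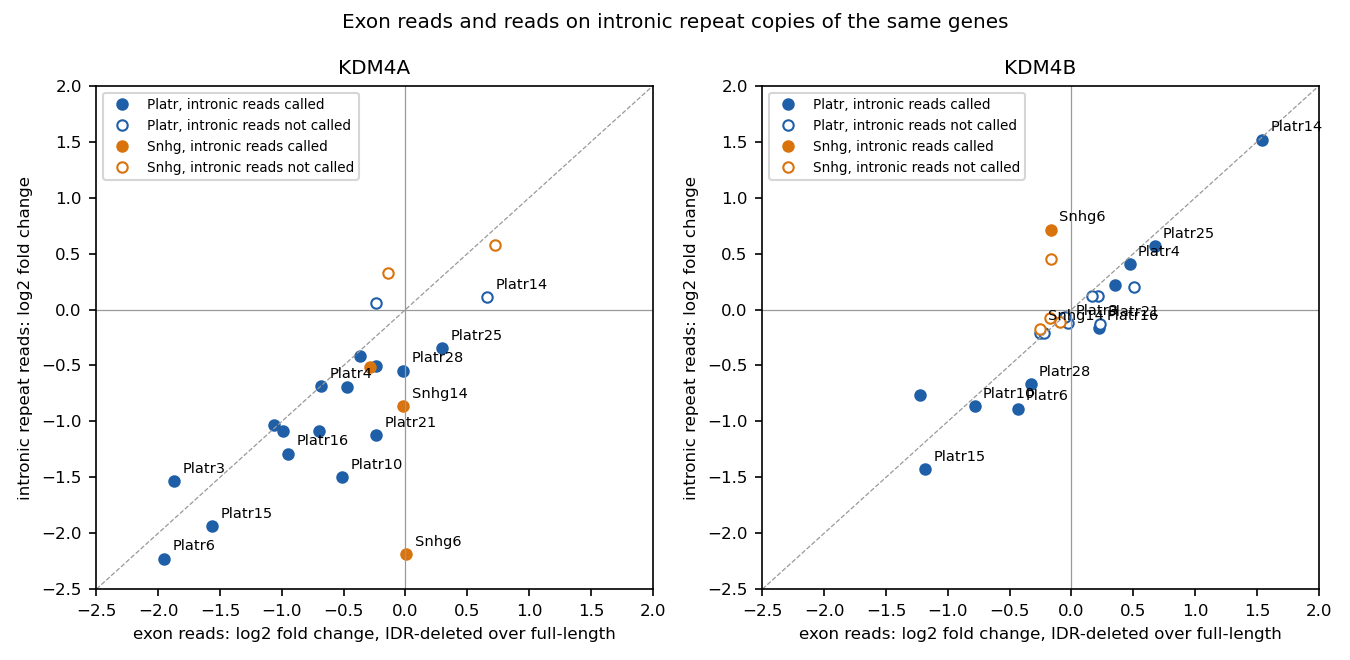
Each point is a member with at least 1 CPM of intronic repeat reads in the contrast (22 genes with KDM4A, 23 with KDM4B), placed by its log2 fold change on exon reads and on intronic repeat reads, and filled where the intronic change had an adjusted p under 0.05. Platr3, Platr6 and Platr15 are low on both axes with KDM4A, while Snhg14 and Snhg6 with KDM4A lie near 0 on exons and at -0.87 and -2.18 on introns.

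The snoRNAs themselves were hardly measured. Same-strand snoRNA genes lay in the spans of 11 Snhg genes, 33 in all, of which 2 passed the filter. The deposited counts gave a read over 2 features to neither, so a snoRNA inside a host's exon is not counted. The 8 in Snhg1 had 0 reads beside 78877 of the host, the 4 in Snhg12, the 3 in Snhg17 and 1 each in Snhg6, Snhg8 and Snhg15 had 0 too, the 9 in Snhg14 had 90, and 1 in Snhg18 had 21. Snora78, inside Snhg9, was counted with 21340 reads beside 87 of its host. It stood at 29.8 ± 23.3 CPM (SD, n = 2) with FL and 35.3 CPM with IDR-deleted KDM4A (log2 0.23 ± 0.91, adjusted p = 0.86), and the other tested snoRNA gene, Gm25129 in Snhg11, at 1.27 and 1.86 CPM (adjusted p = 0.54). Neither was called in any contrast. The sequences of 2 box C/D snoRNAs in hosts described above show what these introns carry, with ATGATGA (box C) and the last CTGA (box D) in capitals, from GENCODE M21 transcripts.

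Snord99 (74 bases, in Snhg12): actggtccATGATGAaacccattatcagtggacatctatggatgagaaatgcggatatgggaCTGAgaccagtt
Snord87 (87 bases, in Snhg6): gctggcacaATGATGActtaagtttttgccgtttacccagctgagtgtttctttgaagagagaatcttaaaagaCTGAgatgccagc

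Genes of the snoRNA pathway were read beside the hosts. Of 18 snoRNP proteins and assembly factors, 9 rose and 4 fell with KDM4A (median log2 0.15), and with KDM4B 0 rose and 10 fell (median -0.20). Their rises and falls were 7 and 1 with KDM6A, and 4 and 2 with KDM6B. Dkc1, the pseudouridine synthase of box H/ACA particles, rose with KDM4A by 0.72 ± 0.045 and fell with KDM4B by 0.30 ± 0.045. Ruvbl2 and Nufip1, assembly factors of box C/D particles, rose with KDM4A by 0.72 and 0.65 and did not pass the test with KDM4B. Of 13 other snoRNA hosts, 8 rose and 4 fell with KDM4A (median 0.34): Eef2 and Eef1b2, which encode elongation factors, rose by 0.72 and 0.73, and Taf1d, a polymerase I factor gene, fell by 0.65. With KDM4B 5 rose and 5 fell (median -0.08). The same hosts gave 3 rises and 1 fall with KDM6A (median 0.10), and 8 rises and 1 fall with KDM6B (median 0.16).

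Of 16 genes for nonsense-mediated decay and the exon junction complex, which act on spliced host RNAs, 9 rose and 2 fell with KDM4A, led by Upf2 (0.90 ± 0.036), Smg1 (0.63 ± 0.029) and Upf3b (0.68 ± 0.044), and 7 rose and 4 fell with KDM4B. Their rises and falls were 3 and 2 with KDM6A, and 1 and 1 with KDM6B. Of 16 pluripotency transcription factors, the setting in which Platr genes are known, 4 rose and 9 fell with KDM4A (median -0.23) and 2 rose and 13 fell with KDM4B (median -0.33). Tbx3 fell by 1.09 ± 0.044 with KDM4A and by 0.57 ± 0.043 with KDM4B, Prdm14 by 0.95 ± 0.079 and 0.50 ± 0.076, and Tfcp2l1 rose by 0.67 ± 0.032 and 0.16 ± 0.032. With KDM6A and KDM6B, 8 and 4 of these factors rose and 2 and 5 fell. Beside these counts, 24.6% and 25.9% of all genes rose and fell with KDM4A, 18.6% and 17.6% with KDM4B, 8.3% and 8.65% with KDM6A, and 9.89% and 10.7% with KDM6B. The rises in these lists are on the scale of the genes: the ERCC scaling shifts the median gene by -0.65, -0.19, -0.22 and -0.38 in the KDM4A, KDM4B, KDM6A and KDM6B contrasts.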

How the data were processed

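The authors deposited a table of whole-number read counts per gene and one per repeat copy. Per the file headers, featureCounts 2.0.3 assigned reads of mapping quality 30 or more, ignored strand, counted each read of a pair and dropped reads that matched several places or features. Per the submitters' processing notes, HISAT2 and GRCm39 were used, with no versions given. Symbols came from GENCODE M21 (51948 genes matched, 4993 did not). The members and lists were chosen with earlier results of these data known.

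Counts were tested with edgeR 4.0.16 (R 4.3.3): TMM scaling, a minimum count of 10 in filterByExpr, robust quasi-likelihood fits of 8 group means with 8 residual degrees of freedom, and Benjamini-Hochberg adjustment over 31057 genes at 0.05. ERCC and kit-control rows were kept out of library sizes. Standard errors are the log2 change over the square root of F. An exact test of 2 against 2 libraries cannot go below p = 0.33. The tests were checked on simulated counts. Libraries of a group correlated at r = 0.995 to 0.998 over genes. CPM and RPKM values were computed here from the counts.

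Alternatives were RLE and ERCC scaling, DESeq2 1.42.0, no filter on low counts, the replicate number as a block, fits of 4 libraries, and leaving out each library. Named genes were the 8 highest members per family, the 4 largest called rises and falls per contrast and family at 1 CPM or more, the 2 largest differences per family and test, and up to 3 genes per related list with the smallest p with KDM4A. Platr2 was not analysed here.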

Additional observations from a re-analysis of the deposited data

Results flagged for a closer look

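The effect of the deletion differed between demethylases in 33 member tests, by the test of the difference in the fit of all libraries. KDM4A against KDM4B, the log2 differences (KDM4A effect minus KDM4B effect) among Platr genes were -1.84 for Platr3, -1.61 for Platr1, -1.51 for Platr6, -1.17 for Platr16, -1.16 for Platr4, -1.15 for Platr20, -1.05 for Platr23 and -1.02 for Platr7. They were -0.88 for Platr14, -0.74 for Platr8, -0.72 for Platr22, -0.69 for Platr11, -0.47 for Platr21 and -0.38 for Platr25, and they were positive for Platr28 (0.31, but -0.15 with ERCC scaling) and Platr31 (0.81). Among Snhg genes they were -0.69 for Snhg8, -0.40 for Snhg17, -0.19 for Snhg15, 0.24 for Snhg14 (-0.22 with ERCC scaling) and 0.90 for Snhg11. Platr8 lost its call on leaving out any of 6 of the 8 libraries, Snhg14 likewise, and Snhg15 on leaving out any of 3.

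KDM6A against KDM6B, the differences among Platr genes were -1.005 for Platr26, -0.76 for Platr22, -0.49 for Platr11, -0.45 for Platr21, 0.31 for Platr28, 0.62 for Platr1, 0.62 for Platr12 and 0.84 for Platr3. Among Snhg genes they were -1.31 for Snhg11, -0.55 for Snhg8, 0.23 for Snhg15 and 0.53 for Snhg17. Platr1 lost its call on leaving out any of 5 of the 8 libraries and Platr28 on leaving out any of 3.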

How the results depend on the processing

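ERCC scaling moved most counts. Its median shift is given with the results, and the amount of ERCC RNA per cell is not given in the sources used here. Platr rises and falls were 0 and 27 with KDM4A, 3 and 10 with KDM4B, 1 and 9 with KDM6A, and 0 and 13 with KDM6B, and Snhg rises and falls were 0 and 9, 1 and 6, 0 and 7, and 1 and 8. Over all genes 4.71% rose and 57.2% fell with KDM4A in this scaling, 9.26% and 27.6% with KDM4B, 1.43% and 23% with KDM6A, and 2.13% and 42.8% with KDM6B. Changes of sign under it were Platr25 (-0.36) and Snhg12 (-0.32) with KDM4A, Snhg15 (-0.043) and Snhg17 (-0.018) with KDM6A, Platr10 (-0.010) and Platr21 (-0.13) with KDM6B, and the KDM4A minus KDM4B differences of Platr28 (-0.15) and Snhg14 (-0.22). The cause was not tested. Rises as a share of all calls went from 48.7% to 7.61%, 51.5% to 25.1%, 49.0% to 5.84% and 47.9% to 4.74% in the KDM4A, KDM4B, KDM6A and KDM6B contrasts.

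With the other settings on exon reads, apart from leaving out a library, the counts that moved by over 1.5 times from the reported fit were all of Snhg genes. KDM4A falls, 2 in the reported fit, were 4 without the filter on low counts and 4 in the fit of 4 libraries. KDM4B falls, 3 in the reported fit, were 5 with RLE scaling and 6 with DESeq2. KDM6B rises, 1 in the reported fit, were 2 without the filter and 2 in the fit of 4 libraries, where falls were also 2. With the replicate number as a block, Snhg falls were 5 with KDM4A and 5 with KDM4B, and Snhg rises were 2 with KDM6B. Same-numbered libraries of FL and IDR-deleted groups deviated together with r of 0.29, 0.294, 0.305 and 0.00165 over genes. Over all pairs of groups this r ran from 0.00165 to 0.343. The labels name no shared batch or day for a number and a contrast has only 2 numbers, so they were not taken as a pairing. On intronic repeat reads, TMM over the intronic sums gave 1 Platr rise and 1 Snhg rise with KDM4A, and 8 Platr rises, 4 Platr falls and 0 Snhg falls with KDM6B, and the replicate block gave 1 Snhg rise with KDM4A. The intronic readout and its alternatives were chosen after seeing the data.

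Leaving out each library gave, with KDM4A, 2 to 2 Platr rises, 15 to 19 Platr falls, 3 to 3 Snhg rises and 2 to 2 Snhg falls. With KDM4B it gave 5 to 8, 5 to 6, 1 to 3 and 0 to 3 in the same order, with KDM6A 2 to 5, 2 to 3, 1 to 2 and 1 to 2, and with KDM6B 2 to 4, 0 to 3, 1 to 2 and 1 to 1. Differences were called for 14 to 17 Platr and 3 to 5 Snhg genes (KDM4A minus KDM4B) and for 5 to 8 and 3 to 4 (KDM6A minus KDM6B). Intronic counts were 0 to 1 Platr rises, 15 to 16 Platr falls, 0 to 1 Snhg rises and 2 to 3 Snhg falls with KDM4A, 4 to 4 Platr rises, 5 to 6 Platr falls and 0 to 1 Snhg rises with KDM4B, 7 to 7 Platr rises and 1 to 1 Platr falls with KDM6A, and 2 to 3 Platr rises, 6 to 7 Platr falls and 0 to 1 Snhg falls with KDM6B. With 2 libraries a group, a fit without one assumes that the lone library varies like the other groups.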
